A study of Mus musculus with 7 samples.

Results

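The genes that encode the respiratory chain from the nucleus were followed in cerebellar RNA of conditional Cic knockout mice and a comparison group. Cic encodes a transcriptional repressor that partners with ATXN1. Members were chosen by symbol alone: Ndufa, Ndufb, Ndufc, Ndufs and Ndufv genes with a number for complex I, Sdha to Sdhd for complex II, all Uqcr genes for complex III, numbered Cox4 to Cox8 genes with a letter a, b or c for complex IV, and all Atp5 genes for complex V, with pseudogene symbols ending in -ps left out. The rule found 82 members among 24421 gene symbols, namely 37 of complex I, 4 of complex II, 8 of complex III, 16 of complex IV and 17 of complex V. It did not use any measured value. It took Ndufa4, whose protein is known to sit with complex IV, into complex I, and it took Atp5s and Atp5sl, which are not subunits of the enzyme proper, into complex V. It missed some subunits with other names, such as Cyc1 and Cox4i1, which are described with the companion lists.

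The respiratory chain sits in the inner mitochondrial membrane. Complexes I and II pass electrons from NADH and succinate to ubiquinone, complex III hands them to cytochrome c, complex IV reduces oxygen, and complex V (ATP synthase) uses the proton gradient to make ATP. A few subunits are encoded by mitochondrial DNA and all others by the nucleus, and several complex IV subunits exist as isoforms, of which one is found in most tissues and the other in muscle, heart or testis. Purkinje cells fire continuously, and cerebellar neurons depend on this pathway for ATP.

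The 7 libraries came from cerebellum of C57BL/6 mice. The CicKO group (n = 4) carried En1-Cre with both Cic alleles floxed (En1-Cre; Cicflox/flox), and the group titled Wildtype (n = 3) was Cicflox/+ with no Cre named. En1-Cre acts in the descendants of cells that expressed En1 in the embryonic midbrain and hindbrain, so Cre and loss of Cic cannot be told apart in this design, and cells outside that lineage keep Cic. Age, sex and litter are not in the labels, which also leave unsaid whether each library is a separate animal, so p-values measure the spread between these libraries, which may be technical. By its title, the series is about the ATXN1-CIC complex and toxic gain of function in SCA1, an ataxia caused by mutant ATXN1.

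Gene counts per library ranged from 102653765 to 121285349. Levels are given as CPM (counts scaled to the TMM-adjusted library size), and 3 counts, the limit that a count of 0 allows, correspond to 0.0247 to 0.0292 CPM. These limits cover counting error only, because the cDNA was amplified without molecular identifiers. Cic itself (chromosome 7, 25267704 to 25294159, GRCm38) stood at 147, 146, 144 and 147 CPM in the CicKO libraries and at 216, 257 and 223 CPM in the Wildtype libraries, so its log2 fold change was -0.66 (SE 0.062, edgeR quasi-likelihood test with Benjamini-Hochberg adjustment, adjusted p = 0.00256). The groups did not overlap, and Cic transcript remained at 0.631-fold of the Wildtype level. A library carries RNA of all cells of the tissue, so fewer cells of a type and less RNA per cell cannot be told apart. Choroid plexus markers stood apart in CicKO 3 and Wildtype 3, where the 12 markers summed to 12265 and 8445 CPM against 213 to 370 CPM in the other 5 libraries.

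Respiratory chain transcripts of the CicKO libraries lay near the Wildtype level. Of the 80 members tested, 0 were called higher and 0 lower in CicKO at an adjusted p below 0.05, where 1.25% of all 16905 tested genes were called higher and 0.828% lower. The median log2 fold change over members was -0.063, which is 0.958-fold, beside -0.0044 over all tested genes. At an unadjusted p below 0.05, 3 members were lower (Ndufb2, Ndufa2 and Ndufc2) and 1 was higher (Cox6b2), beside 8.16% lower and 8.06% higher among all tested genes. The count of such lower members was 19 without Wildtype 2 and 0 without CicKO 1, Wildtype 1 or Wildtype 3. The share of all tested genes at this unadjusted p was not counted in those fits. The 8.16% belongs to the fit of all 7 libraries, so it is no measure for these counts. DESeq2 called 1 member higher (Cox6b2) and 0 lower, where it called 4.19% of all genes higher and 3.11% lower. Limma-voom called 0 members in either direction, beside 1.14% of all genes higher and 0.787% lower. The 2 members not tested were Ndufs5 and Cox8c. Ndufs5 (chromosome 4, 123712710 to 123718202), a small accessory subunit of complex I, was listed at 0 in all 7 libraries. Whether its reads were lost in alignment or counting was not checked, so this 0 sets no limit on its level. Cox8c, an isoform described in testis, had 2 counts in all, both in CicKO 3.

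The size of change that these libraries leave room for was small. For 74 of the 80 members, the 95% interval of the fold change lay within 1.25-fold in either direction, against 47.7% of all tested genes. The limit of 1.25 was chosen after the values had been seen. Those 74 were the members whose mean reached 15 CPM, and their median half-width on the log2 scale was 0.129. The other 6 were the isoforms Cox6a2, Cox6b2, Cox7a1, Cox7b2, Cox8b and Ndufa4l2, all under 15 CPM, whose intervals were wider. The plot of change by member shows both sets.

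**Figure D1:**
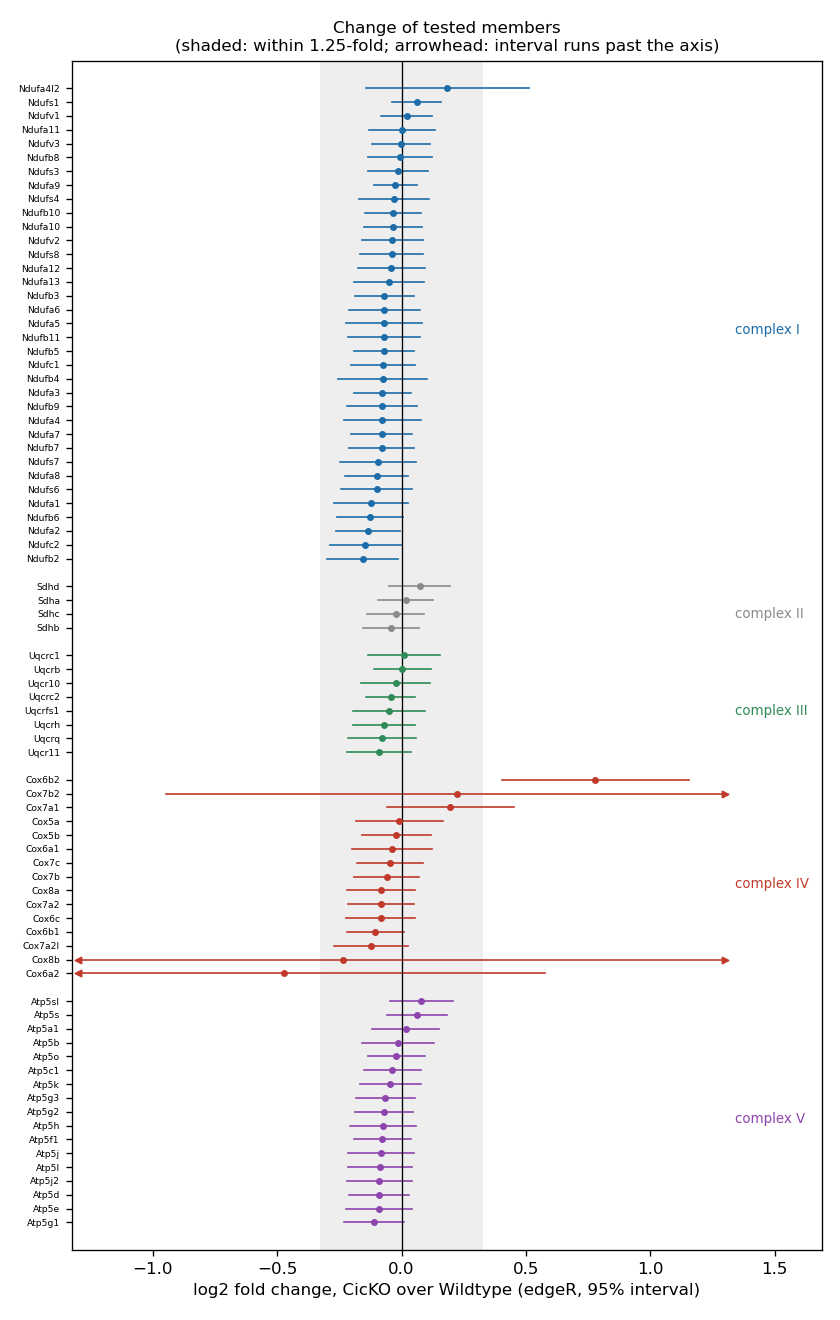
Log2 fold change of 79 of the 80 tested members, CicKO over Wildtype, with its 95% interval from the edgeR fit, grouped by complex. The shaded band marks 1.25-fold in either direction. It holds the whole interval of 73 of those drawn, and Cox6b2 is the member whose interval lies farthest to the right of 0.

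Within the narrow range, most members lay slightly on the low side. The log2 fold change was negative in 66 of 80 members, where 51.2% of all tested genes were negative. By complex it was negative in 32 of 36 tested members of complex I, 2 of 4 of complex II, 6 of 8 of complex III, 12 of 15 of complex IV and 14 of 17 of complex V. The medians were -0.069 for complex I, -0.0039 for complex II, -0.048 for complex III, -0.060 for complex IV and -0.069 for complex V. These values are described without a test, since genes are not replicates of a genotype.

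The libraries did not split by genotype in this offset. Relative to the mean of the Wildtype libraries, the median member stood at -0.092, -0.047, -0.12 and 0.025 on the log2 scale in CicKO 1 to 4, and at 0.026, -0.079 and 0.052 in Wildtype 1 to 3. CicKO 4 thus lay among the high Wildtype libraries, and Wildtype 2 among the low CicKO libraries, so the groups overlapped. CicKO 3 held the lowest value for 38 members and CicKO 1 for 25, and Wildtype 3 held the highest for 38. All 5 complex medians lay below 0 in CicKO 1, CicKO 2, CicKO 3 and Wildtype 2. In CicKO 3 they ran from -0.14 (complex IV) to -0.031 (complex II). Together the members took 1.21% to 1.29% of gene counts in CicKO and 1.20% to 1.32% in Wildtype.

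**Figure D2:**
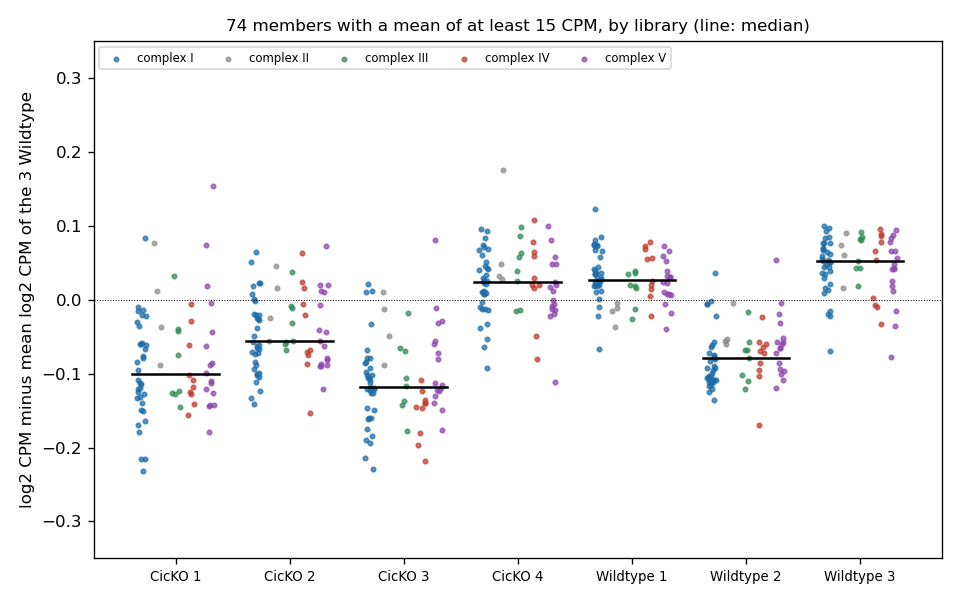
Each point is 1 member (mean of 15 CPM or more) in 1 library, as log2 CPM minus the mean log2 CPM of the 3 Wildtype libraries, coloured by complex, and lines are library medians. CicKO 1, CicKO 2, CicKO 3 and Wildtype 2 lie below 0, while CicKO 4, Wildtype 1 and Wildtype 3 lie above it.

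The share of reads assigned to no feature was 16.0% in Wildtype 1 and 16.5% in Wildtype 3, but 18.6% in Wildtype 2 and 18.2% to 19.0% in CicKO. CicKO 4, where the median member was above 0, had a share of 18.8%, among the high ones. With that share as a covariate, the median over members was 0.016. In that fit 0 members were called in either direction, where 0.272% of all genes were called higher and 0.071% lower. Of the Wildtype libraries only Wildtype 2 lay in the CicKO range, so this fit separates share and genotype poorly. By transcript length, genes up to 977 bases long, the shortest of 10 equal classes, had a median log2 fold change of -0.048, and the longest class one of 0.045. Of the 80 members, 52 fell in the shortest class, where their median was -0.076. With length-dependent offsets the median over members was -0.020. The median was -0.012 without the choroid plexus rich libraries CicKO 3 and Wildtype 3, and -0.0995 without Wildtype 2. The count of members with a negative log2 fold change was 29 of 80 with the no-feature covariate, 44 without CicKO 3 and Wildtype 3, and 55 with length-dependent offsets. The medians over all tested genes in these fits were -0.011, -0.010 and -0.0089, in the same order, and -0.0026 without Wildtype 2. Without CicKO 3 and Wildtype 3 the members' median thus lay near that of all genes. The share of all genes with a negative value was not counted in these fits.

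In complex I, the NADH dehydrogenase and entry point of the chain, Ndufb2 had the smallest p. This accessory subunit of the membrane arm (chromosome 6, 39592574 to 39603382) stood at 41.3, 45.2, 41.4 and 46.4 CPM in CicKO and at 49.5, 45.8 and 50.3 CPM in Wildtype. CicKO 4 exceeded Wildtype 2, so the groups overlapped. The log2 fold change was -0.16 (SE 0.062, adjusted p = 0.263). Ndufa2, a small accessory subunit of the peripheral arm, gave 48.0 ± 1.46 CPM (SD, n = 4) against 52.7 ± 3.34 CPM (SD, n = 3), a log2 fold change of -0.14 (adjusted p = 0.280). Ndufc2, another subunit of the membrane arm, gave 89.3 ± 4.97 against 98.9 ± 6.97 CPM and -0.15 (adjusted p = 0.298). Ndufb2 shares 146 exonic bases with Braf on the other strand and Ndufa2 shares 66 with Tmco6, and reads of such stretches cannot be told apart without strand.

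Complex II, succinate dehydrogenase, which is also an enzyme of the citric acid cycle, had the median closest to 0. Sdha, the flavoprotein (chromosome 13, 74322254 to 74350280), stood at 588, 590, 588 and 595 CPM in CicKO and at 579, 582 and 590 CPM in Wildtype. These 7 values spanned a narrow band in which the groups overlapped, and the fold change had a 95% interval of 0.937 to 1.09. Sdhd, a membrane anchor, had a log2 fold change of 0.072 (adjusted p = 0.557), Sdhb, the iron-sulfur subunit, one of -0.043 and Sdhc, the other anchor, one of -0.024.

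Complex III, the cytochrome bc1 complex, gave the smallest p in Uqcr11, one of its small subunits. Uqcr11 was at 90.4 ± 4.01 CPM (SD, n = 4) in CicKO and 96.2 ± 6.20 CPM (SD, n = 3) in Wildtype, a log2 fold change of -0.089 (adjusted p = 0.485). Uqcrh, the hinge protein, and Uqcrq, a ubiquinone-binding subunit, gave -0.071 and -0.079. Uqcrfs1, the Rieske iron-sulfur protein, gave -0.052 with an interval of 0.872 to 1.07-fold. All 8 members had intervals within 1.25-fold.

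In complex V, Atp5b, the catalytic beta subunit (chromosome 10, 128083273 to 128090391), was the most abundant member. It stood at 1588, 1604, 1461 and 1647 CPM in CicKO and at 1601, 1571 and 1605 CPM in Wildtype. CicKO 3 was the lowest library and CicKO 4 the highest, so the Wildtype values lay inside the CicKO range, and the log2 fold change was -0.016 (SE 0.064). The 5 subunits of the catalytic head and central stalk had a median of -0.036, the 3 genes of the c ring one of -0.069, the 4 of the peripheral stalk one of -0.076 and the 3 other membrane subunits one of -0.086. These role groups were drawn from textbook knowledge after the values had been seen, and differences between them were not tested. Atp5g1, Atp5d and Atp5e had the smallest p in this complex. Atp5g1, one of 3 genes that encode the same c ring protein, was at 123 ± 5.33 against 133 ± 7.02 CPM, a log2 fold change of -0.11 (adjusted p = 0.347). Atp5d and Atp5e, the delta and epsilon subunits of the central stalk, gave -0.090 and -0.091.

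The one member that stood apart was Cox6b2, the testis isoform of Cox6b, a subunit on the intermembrane face of complex IV that helps to hold the dimer together. Its partner Cox6b1 is the form of most tissues. Cox6b2 (chromosome 7, 4751792 to 4753094, minus strand) and Cox6b1 (chromosome 7, 30616861 to 30626151, minus strand) are shown by the 250 bases before their RefSeq starts, because Cox6b2 had the smallest adjusted p of all members. Sequences are 5′ to 3′ on the gene's strand, from RefSeq on GRCm38.p6 (chr7:30626115-30626364 for Cox6b1 and chr7:4753095-4753344 for Cox6b2). Capitals mark the CCAAT box (CCAAT, or ATTGG on the other strand) and the ETS motif bound by GABP (CCGGAAG, or CTTCCGG on the other strand).
Cox6b1: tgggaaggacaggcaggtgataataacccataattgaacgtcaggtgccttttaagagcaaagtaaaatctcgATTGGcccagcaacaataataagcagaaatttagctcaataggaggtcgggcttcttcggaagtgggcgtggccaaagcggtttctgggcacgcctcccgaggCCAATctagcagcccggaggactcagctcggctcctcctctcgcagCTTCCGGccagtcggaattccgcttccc
Cox6b2: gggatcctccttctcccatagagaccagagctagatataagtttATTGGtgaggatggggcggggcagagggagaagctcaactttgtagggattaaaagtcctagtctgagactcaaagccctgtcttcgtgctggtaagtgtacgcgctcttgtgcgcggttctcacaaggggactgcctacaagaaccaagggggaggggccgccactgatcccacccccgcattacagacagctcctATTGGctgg

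Cox6b1 held 1 ETS motif and 2 CCAAT boxes in this stretch, and Cox6b2 held 0 ETS motifs and 2 CCAAT boxes. The Cox6b1 stretch ends inside the gene span given above. Its ETS motif lies in that overlap and is upstream by the RefSeq start only. GC content was 54.0% and 54.8%. Neither stretch held the NRF1 motif or any of the octamers bound by CIC, which says only that these letters are not in this window.

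Cox6b2 stood at 11.4, 10.8, 15.2 and 13.5 CPM in CicKO and at 7.34, 6.03 and 8.91 CPM in Wildtype, from 645 to 1733 counts per library. All 4 CicKO libraries lay above all 3 Wildtype libraries. Cox6b2 was the only tested member whose groups did not overlap in the higher direction, where 7.06% of all tested genes were higher without overlap. No member was lower without overlap (0 of 80, against 8.36% of all tested genes). The fold change was 1.72 with a 95% interval of 1.32 to 2.23 (log2 0.78, SE 0.164), and the adjusted p of 0.0561 in edgeR missed the threshold. The call depended on the fit: the adjusted p was 0.000212 in DESeq2, 0.0594 in limma-voom, 0.00580 with the replicate number as a block, 0.303 with the no-feature share as covariate and between 0.0433 (without CicKO 3) and 0.200 (without Wildtype 1) when 1 library was left out. The fold stayed above 1 in each of these. With the block, CicKO 4 has no Wildtype library of its number and adds nothing to the genotype estimate. Cox6b2 was called in DESeq2 and in 7 other alternatives, which differed in how many of all genes they called higher: 1.83% with the replicate block, 1.27% with length-dependent offsets, 1.69% with both, 0.956% with no filter on low counts, 2.27% with the choroid plexus score as covariate, 1.52% without CicKO 3 and Wildtype 3 together and 2.94% without CicKO 3.

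The partner gene Cox6b1 was at 175, 186, 177 and 189 CPM in CicKO and at 197, 186 and 203 CPM in Wildtype. Its log2 fold change was -0.11 (SE 0.050, adjusted p = 0.346). Per kilobase of transcript, Cox6b2 made up 6.10% to 8.79% of the Cox6b pair in CicKO and 3.49% to 4.68% in Wildtype, so Cox6b1 remained the main form in every library. Cox6b2 shared no exonic bases with another gene of the annotation used.

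**Figure D3:**
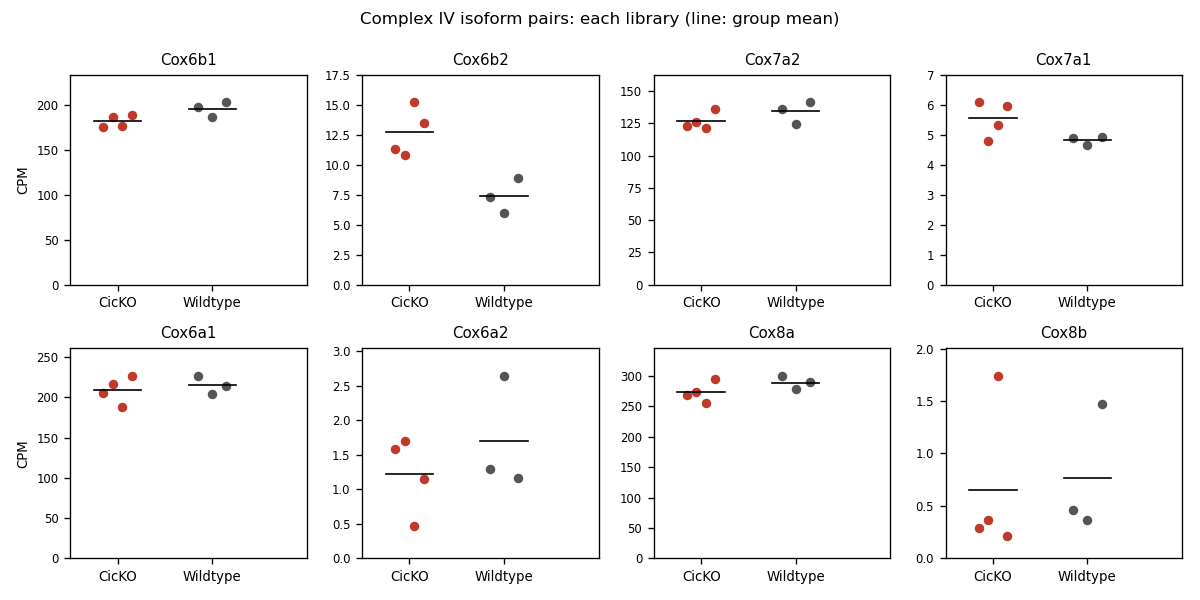
CPM of 8 complex IV isoforms in each library, 4 CicKO and 3 Wildtype points per panel, with a line at the group mean. Every axis starts at 0. The Cox6b2 panel is the one in which all CicKO points (10.8 to 15.2 CPM) lie above all Wildtype points (6.03 to 8.91 CPM).

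The other isoforms linked to muscle and heart were low and did not pass the test. Cox7a1, the heart and muscle form of a small complex IV subunit, was at 6.10, 4.80, 5.36 and 5.98 CPM in CicKO and at 4.92, 4.68 and 4.95 CPM in Wildtype. CicKO 2 lay among the Wildtype libraries, and the log2 fold change was 0.20 (SE 0.112, adjusted p = 0.436). As a share of the Cox7a family per kilobase, Cox7a1 ran from 3.60% to 4.58% in CicKO and from 3.26% to 3.55% in Wildtype. These shares did not overlap, but the gap was narrow (CicKO 2 at 3.60%, Wildtype 2 at 3.55%) and was not tested. Cox7a2, the form of most tissues, and its relative Cox7a2l gave log2 fold changes of -0.084 and -0.12 (adjusted p = 0.530 and 0.406). Cox7a2l was called lower when Wildtype 2 was left out (log2 fold change -0.20, adjusted p = 0.0417), a fit in which 1.2% of all genes were called lower.

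Cox8b, the muscle isoform of Cox8, was highest in the libraries rich in choroid plexus markers. It stood at 0.285, 0.362, 1.74 and 0.209 CPM in CicKO and at 0.465, 0.364 and 1.47 CPM in Wildtype, so CicKO 3 and Wildtype 3 were the high libraries of their groups. Its log2 fold change of -0.23 (SE 0.853) carries an interval from 0.211-fold to 3.42-fold. The part of choroid plexus in this value was not tested. Skeletal muscle markers other than Pvalb, which Purkinje cells and interneurons also express, summed to between 5.18 and 6.48 CPM in every library. Cox6a2 (1.23 ± 0.553 against 1.70 ± 0.818 CPM) and Cox7b2 (1.23 ± 0.665 against 1.06 ± 0.343 CPM) varied more within a group than between groups, with adjusted p = 0.660 and 0.873. Both were lowest of their groups in CicKO 3 and Wildtype 3, with 0.475 and 1.17 CPM for Cox6a2 and 0.369 and 0.666 CPM for Cox7b2. The part of choroid plexus there was not tested. The common counterparts Cox6a1, Cox7b and Cox8a gave log2 fold changes of -0.038, -0.060 and -0.082. Ndufa4l2, the low relative of Ndufa4, was at 1.58 ± 0.0444 against 1.39 ± 0.167 CPM (adjusted p = 0.575), and Ndufa4 gave -0.077.

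The 3 genes of the ATP synthase c ring held overlapping shares in the groups. Per kilobase, Atp5g3 made up 69.0% to 70.7% of the family in CicKO and 69.6% to 70.2% in Wildtype, Atp5g2 19.3% to 20.2% and 19.2% to 20.0%, and Atp5g1 9.74% to 10.8% and 9.84% to 10.8%. The level of Atp5g1 per kilobase rests on an annotated transcript length of 2675.5 bases, so the order among the genes is less certain than the comparison between groups.

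Levels across the family differed far more than between genotypes. Over the 7 libraries, the median member stood at 130.0 CPM per kilobase of transcript, beside 7.77 for all tested genes. The medians were 104 for complex I, 102 for complex II, 173 for complex III, 197 for complex IV and 196 for complex V. Atp5b led with 826 CPM per kilobase, followed by Ndufa4 with 641, Cox8a with 509, Atp5a1, the alpha subunit of ATP synthase, with 464 and Uqcrh with 433. Within complex II, Sdha stood at 203 and Sdhc at 54.4. Within complex III the lowest member was Uqcrfs1 with 105.5. The lowest tested members of complexes I, IV and V were Ndufa4l2 with 1.60, Cox8b with 1.94 and Atp5s, a regulator known as factor B, with 12.5.

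**Figure D4:**
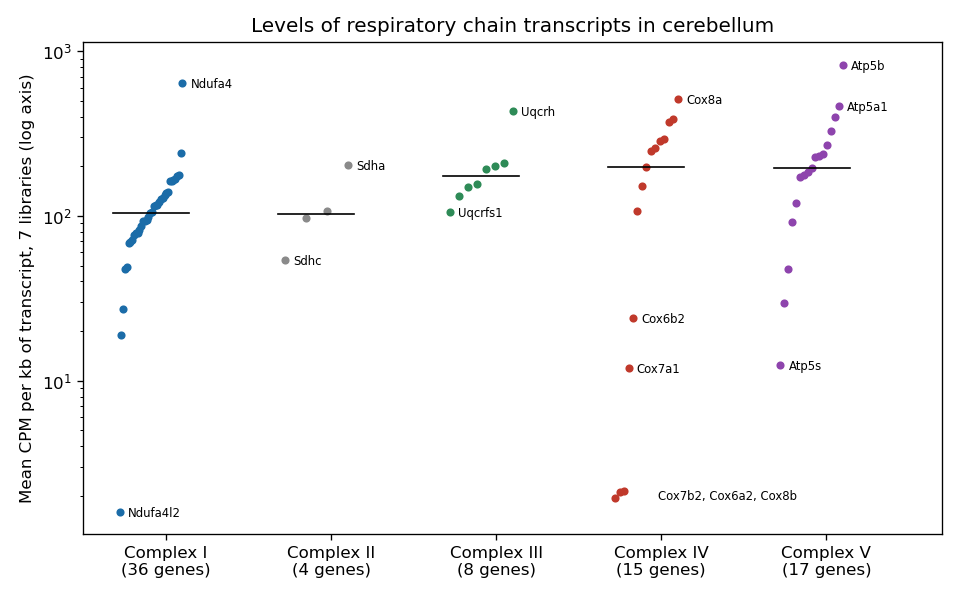
Mean level of each tested member over the 7 libraries in CPM per kilobase of transcript (log axis), by complex, with a line at the complex median. The low points are the isoforms Ndufa4l2, Cox6b2, Cox7a1, Cox7b2, Cox6a2 and Cox8b together with a few complex I and complex V genes.

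Of the 8 subunits with names outside the symbol rule 0 were called, with a median log2 fold change of -0.058. Cyc1 (cytochrome c1 of complex III) gave -0.022, Cycs (cytochrome c) -0.072, Cox4i1 (complex IV) -0.044, Ndufab1 (the mitochondrial acyl carrier protein) 0.0021, Atpif1 (the ATP synthase inhibitor) -0.084, and Usmg5 and 2010107E04Rik (small ATP synthase subunits) -0.099 and -0.091. Cox4i2, the isoform of Cox4 that responds to low oxygen, was at 2.60 ± 0.523 CPM (SD, n = 4) in CicKO against 1.93 ± 0.364 CPM (SD, n = 3) in Wildtype, or 0.43 as log2 fold change (SE 0.205, adjusted p = 0.355).

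The genes that build and feed the chain were read from the same fit. Of 46 tested assembly factors 0 were called, with a median of -0.054. Ndufaf3, which assists complex I assembly, had the smallest p among them (25.1 ± 1.43 against 28.9 ± 0.313 CPM, log2 fold change -0.20, adjusted p = 0.130), and Bcs1l, which inserts the Rieske protein into complex III, and Ndufaf2 gave -0.19 each. Of 18 regulators of mitochondrial biogenesis 0 were called, with a median of -0.044. Tfam, which packages mitochondrial DNA, gave -0.10 (adjusted p = 0.341), and Ppara and Creb1, both transcription factors, -0.25 and -0.12.

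Of 16 genes of pyruvate dehydrogenase and the citric acid cycle 0 were called, with a median of -0.0023. Suclg1, a subunit of succinyl-CoA ligase, gave -0.12, and Pdha1 and Pdhb, subunits of pyruvate dehydrogenase, 0.090 each. Of 15 tested glycolytic genes 0 were called, with a median of -0.057. Tpi1, triosephosphate isomerase, was at 494 ± 13.9 against 558 ± 23.9 CPM (log2 fold change -0.17, adjusted p = 0.172). Aldoc, the aldolase of Purkinje cells and astrocytes, gave 0.27 and Eno2, the neuronal enolase, -0.14.

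Ribosomal protein genes were read as further lists of short transcripts. Of 81 tested cytosolic ribosomal protein genes 0 were called, 69 had an unadjusted p below 0.05 with a lower level (8.16% of all tested genes did) and the median was -0.20. The list's median in Wildtype 2 (-0.14) was below that in CicKO 4 (-0.12), so the groups overlapped. Rps6, of the small subunit, was at 162 ± 6.77 against 193 ± 12.4 CPM (log2 fold change -0.25, adjusted p = 0.0683), and Rps4l and Rps2 gave -0.46 and -0.25 (adjusted p = 0.0792 and 0.0862). Of 77 mitochondrial ribosomal protein genes 0 were called, 8 had an unadjusted p below 0.05 with a lower level, a share near that of all tested genes, and the median was -0.072, with -0.27 for Mrpl54, -0.22 for Mrpl34 and -0.13 for Mrpl15. DESeq2, which called 3.11% of all genes lower, called 14 of 80 cytosolic ribosomal protein genes lower (17.5%, Rps6, Rps4l and Rps2 among them), 2 of 77 mitochondrial ones (Mrpl54 and Mrpl34), 1 of 46 assembly factors (Ndufaf3) and 1 of 15 glycolytic genes (Tpi1). It called 0 lower in the other companion lists and 0 higher in any.

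**Figure D5:**
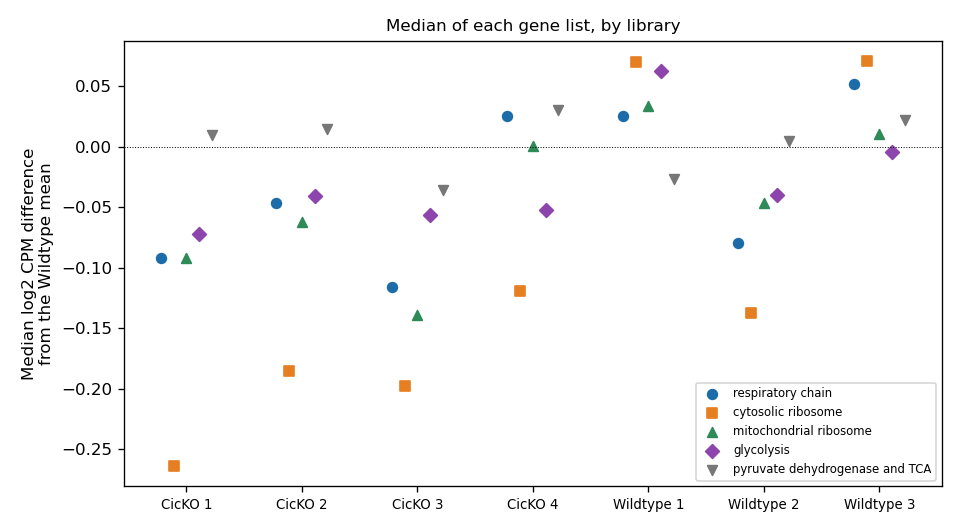
Median of each gene list in each library, as log2 CPM difference from the mean of the 3 Wildtype libraries. Wildtype 2 lies with the CicKO libraries for the cytosolic ribosome (-0.14) and the respiratory chain (-0.079), whereas pyruvate dehydrogenase and citric acid cycle genes range from -0.036 to 0.030 over all 7 libraries.

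Cell type markers bear on a tissue-wide average such as this. Granule neuron markers, 12 of 12 tested, had 0 called and a median log2 fold change of -0.0072. Purkinje cell markers had 0 of 12 called and a median of 0.18, with sums of 8666 to 12095 CPM in CicKO and 8833 to 10402 CPM in Wildtype. Astrocyte and Bergmann glia markers had 4 of 12 called lower (Gdf10, Aqp4, Agt and Ndrg2), where 0.828% of all tested genes were, and sums of 4528 to 4923 CPM in CicKO against 5673 to 5821 CPM in Wildtype, without overlap. Oligodendrocyte markers had 1 of 12 called lower (Cldn11) and a median of -0.33, with overlapping sums of 3942 to 6215 against 5270 to 6636 CPM. Of interneuron and unipolar brush cell, microglia, endothelial and choroid plexus markers 0 were called, as were 0 of 7 tested muscle markers, and 1 of 2 tested red blood cell markers (Slc4a1) was lower. The part of these shifts in the members' values was not tested.

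Promoters of the members are known for sites of NRF1, GABP (an ETS factor) and YY1. RefSeq windows of 250 bases before to 50 after the start were matched for 69 members, and motifs were searched on both strands. A gene was counted if any of its windows held the motif. Members were matched by symbol or RefSeq synonym, but the tested genes by symbol alone, which reached 12542 of the 16905. The NRF1 motif GCATGCGC occurred in 10 of 69 (14.5%), beside 3.05% of all 27025 genes with windows and 5.21% of the matched tested genes. These 10 were Atp5g2, Atp5k, Atp5l, Cox6a1, Ndufa11, Ndufa6, Ndufa8, Sdhb, Uqcr11 and Uqcrc1. The ETS motif occurred in 16 (23.2%), beside 9.93% and 16.6%. The YY1 motif ATGGCGG occurred in 11 (15.9%), beside 4.69% and 7.83%. CCAAT occurred in 31 (44.9%), beside 41.1% and 42.1%. The CIC octamers TGAATGAA, TGAATGGA, TCAATGAA and TCAATGGA occurred in 2 (2.90%), namely Cox8a and Ndufc1. Any of these octamers occurred in 4.45% of all genes with windows and 3.08% of the matched tested genes. A match describes the letters of the window and is not a site.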

How the data were processed

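RNA of 7 mouse cerebellum libraries was converted to amplified cDNA by poly(A) and random priming and sequenced on an Illumina HiSeq, per the labels' protocols. Raw counts for each gene symbol were deposited, 1 file per library. The submitters' processing notes name STAR 2.5.3a, HTSeq, DESeq2 and mm10. The strand setting and the annotation used are not stated in these sources. The files held 0 symbols starting with mt-, and HTSeq summary rows stayed out of library sizes: no feature 16.0% to 19.0%, ambiguous 1.27% to 1.37% and not uniquely aligned 12.0% to 13.7% of entries. Reads of near-identical pseudogenes may fall in the last class. Members and lists were chosen with earlier results of these data known.

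The 16905 genes kept by filterByExpr were scaled by TMM and tested in edgeR 4.0.16 (R 4.3.3) with robust quasi-likelihood, a genotype term alone and p-values adjusted over all genes by Benjamini-Hochberg, called below 0.05. Every adjusted p is from this test unless another tool is named. Intervals are at 95% from the quasi-likelihood degrees of freedom. DESeq2 1.42.0 and limma-voom (limma 3.58.1), other scalings, filters, covariates and left-out libraries were alternatives, and the procedure was tested on simulated data. Named genes were, per complex, the 3 with the smallest p and the highest and lowest per length, plus fixed isoform groups, the extremes, subunits outside the symbol rule, up to 3 genes of each companion list, and Cic. Lengths are medians of protein-coding GENCODE M21 transcripts on GRCm38, which is mm10. 1 position, that of Atp5sl, was found by its RefSeq synonym. 1 member of complex I enters the counts and medians but is not reported here singly. 20 members share exonic bases with another gene of the files.

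Within groups, pairs of libraries differed by 18.5 to 157 times the sampling variance, so each counted as 1 replicate. Libraries of the same number in the labels had deviations that correlated at 0.145, 0.288 and 0.713 across genes, but libraries of different numbers did so too (CicKO 1 with Wildtype 2, 0.319). The replicate block was therefore an alternative. CicKO 4 has no Wildtype library of its number, so it adds nothing to the genotype estimate in fits with this block.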

Additional observations from a re-analysis of the deposited data

Results flagged for a closer look

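Among the 4 CicKO libraries, 1 library lay apart from the other 3 for 2 of the 58 genes examined by Dixon's criterion at its 95% critical value for 4 samples, and chance flags about 1 in 20 such groups. Atp5s, a regulator of ATP synthase, stood at 18.98 CPM in CicKO 2 against 19.83 to 19.92 CPM in the other 3. Suclg1, of the citric acid cycle, stood at 120.4 CPM in CicKO 4 against 115.4 to 115.9 CPM. Neither gene was called between the groups.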

How the results depend on the processing

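Cic was called lower in every alternative run, with log2 fold changes from -0.80 to -0.58. The count of members called higher was 1 (Cox6b2) with length-dependent offsets, with these and the replicate block, in DESeq2, with no filter on low counts, with the replicate block alone, with the choroid plexus score as covariate and without CicKO 3 and Wildtype 3 together, and 0 otherwise. Leaving out 1 library at a time gave 0 to 1 called higher (1 without CicKO 3) and 0 to 1 called lower (1, Cox7a2l, without Wildtype 2). The replicate block, in which CicKO 4 adds nothing to the genotype estimate, changed no other member's call and gave a median over members of -0.089. The median over members was 0.016 with the no-feature share as covariate and between -0.0995 and -0.036 without 1 library. Log2 fold changes near 0 changed sign without a call. With the no-feature share they were 0.027 for Ndufa4, 0.00743 for Sdhc, 0.035 for Uqcrfs1, 0.027 for Cox7a2l, 0.015 for Atp5b, 0.048 for Cox6a1, 0.0019 for Cox7a2, 0.018 for Atp5g3, 0.025 for Cyc1 and 0.043 for Cox4i1. Without CicKO 3 and Wildtype 3 they were 0.010 for Sdhb, 0.031 for Sdhc, 0.013 for Uqcrfs1, 0.024 for Atp5b, 0.0063 for Cox6a1, 0.0095 for Cox7b and 0.00238 for Cyc1. With length-dependent offsets they were 0.015 for Cox6a1 and 0.00476 for Cox4i1. With the replicate block Cox7b2 gave -0.16 and Ndufab1 -0.031, and with length-dependent offsets added -0.085 and -0.0281. Cox7b2 gave -0.021 with the choroid plexus score, and Ndufab1 -0.00214 with library size only and -0.00346 with no filter. Without 1 library, ranges that crossed 0 were -0.050 to 0.022 for Sdhc, -1.42 to 0.65 for Cox8b, -0.038 to 0.018 for Atp5b, -0.079 to 0.011 for Cox6a1, -0.021 to 0.53 for Cox7b2, -0.031 to 0.0315 for Ndufab1 and -0.051 to 0.00666 for Cyc1. The cause of these changes was not tested. The 6 members under 15 CPM had the widest intervals, and depth and spread between libraries were not separated there.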
